A study of Mus musculus with 48 samples.

Results

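The genes described here carry the hormone and growth factor signals that tie lung tissue to body fat and nutrition. They are the leptin receptor Lepr, the insulin receptor Insr, the receptor substrates Irs1 and Irs2, the adiponectin receptors Adipor1 and Adipor2, the growth factor Igf1 with its receptor Igf1r, and the IGF-binding protein Igfbp3. All probe sets of the array that its annotation assigns to 1 of these symbols alone were taken, which gave 17 of the 22626 probe sets tested and 9 of 12393 genes. Igf1, Lepr and Adipor1 had 3 probe sets each, Igf1r and Insr had 2 each, and the other genes had 1 each.

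Leptin is secreted by fat cells and signals through Lepr and its bound kinase JAK2. Insulin and IGF-1 bind the related tyrosine kinase receptors encoded by Insr and Igf1r, which pass the signal to IRS-1 and IRS-2 and from there to the PI3 kinase and AKT pathway. Most IGF-1 outside cells is held by binding proteins, of which IGFBP-3 is the main carrier in blood. In lung, IGF-1 is made mainly by macrophages and fibroblasts and is known from injury and repair, and adiponectin from fat acts through the receptors encoded by Adipor1 and Adipor2.

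The lungs came from 48 male C57BL/6 mice in 6 groups of 8, with 1 Affymetrix array for each mouse. Obese mice (DIO) had been fed food of 60 kcal% fat since they were 6 weeks old, for 9 weeks before exposure, and regular weight mice (RW) had eaten a diet with about 5 kcal% fat. At 15 weeks of age, mice of each diet began to breathe mainstream smoke (MS, drawn through the cigarette), sidestream smoke (SS, from its burning end) or filtered air (SC). Exposure was through the nose only, for 5 hours on each of 8 days, and lungs were taken the day after the last exposure. The groups were therefore DIO-MS, RW-MS, DIO-SS, RW-SS, DIO-SC and RW-SC. In diet-induced obesity the diet and the weight cannot be told apart. The growth description also names an LPS study, and whether any mouse had another treatment is not stated. In the source names, arrays 7 and 8 of both RW-MS and RW-SS share the numbers 5 and 6 with other arrays, and they were counted as separate mice by their titles.

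Values are log2 signals normalised with RMA, and 1 unit is a doubling. A value after ± is the SD beside a group mean and the standard error beside a log2 difference, and n = 8 for every group. Calls rest on limma with Benjamini-Hochberg adjustment over the 22626 probe sets at an adjusted p below 0.05. Of the 17 probe sets, 13 had a group mean of at least 6 in some group, and 4 did not (Lepr 1425873_a_at, both of Insr, and Igf1r 1452108_at). The lung markers Sftpc and Scgb1a1 read at least 14.97 and 15.08 on every array. Arrays DIO-MS-1, DIO-MS-6, RW-SS-6, DIO-SC-3 and DIO-SC-7 stood apart, with a mean correlation to the other arrays of 0.962 to 0.982, against 0.987 to 0.992 for the other 43. DIO-SC-3 had high skeletal muscle and squamous epithelium markers, DIO-SC-7 high thymocyte and fat markers, RW-SS-6 high fat markers, and DIO-MS-1 and DIO-MS-6 high interferon-induced genes. Results that rest on these arrays are given with and without all 5. Interferon-induced genes were also high in RW-MS-7, at 9.44, an array that stayed among the 43. The highest DIO-MS level among the 43 was 7.30. In whole lung, fewer cells of a type and less RNA per cell cannot be told apart.

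Sequence before the gene's start is printed for the ligand, its binding protein and both receptor substrates, the 4 genes whose leading probe set was called under mainstream smoke against air. RefSeq (GRCm38.p6) gave windows for 8 of the 9 genes, and Insr is named only. Each window is the 250 bases upstream of a listed start, read 5′ to 3′ on the strand of the gene. Capitals mark letters of a motif found on either strand. The windows are chr10:87860861-87861110 on the plus strand for Igf1, and chr11:7213924-7214173, chr1:82291440-82291689 and chr8:11008930-11009179 on the minus strand for Igfbp3, Irs1 and Irs2.
Igf1: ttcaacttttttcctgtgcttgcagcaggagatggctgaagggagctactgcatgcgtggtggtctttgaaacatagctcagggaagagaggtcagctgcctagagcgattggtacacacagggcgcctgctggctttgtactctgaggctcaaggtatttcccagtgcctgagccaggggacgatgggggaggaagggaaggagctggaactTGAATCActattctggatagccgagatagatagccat
Igfbp3: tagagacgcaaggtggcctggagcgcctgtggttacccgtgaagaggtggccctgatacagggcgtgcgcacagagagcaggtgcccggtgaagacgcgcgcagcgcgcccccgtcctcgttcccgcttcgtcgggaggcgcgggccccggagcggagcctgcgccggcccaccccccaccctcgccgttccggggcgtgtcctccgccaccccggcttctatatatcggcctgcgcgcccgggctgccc
Irs1: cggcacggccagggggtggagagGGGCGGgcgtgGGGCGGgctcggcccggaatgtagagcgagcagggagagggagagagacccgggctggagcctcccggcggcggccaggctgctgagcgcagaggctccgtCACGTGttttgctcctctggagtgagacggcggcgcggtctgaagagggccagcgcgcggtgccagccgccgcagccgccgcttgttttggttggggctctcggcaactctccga
Irs2: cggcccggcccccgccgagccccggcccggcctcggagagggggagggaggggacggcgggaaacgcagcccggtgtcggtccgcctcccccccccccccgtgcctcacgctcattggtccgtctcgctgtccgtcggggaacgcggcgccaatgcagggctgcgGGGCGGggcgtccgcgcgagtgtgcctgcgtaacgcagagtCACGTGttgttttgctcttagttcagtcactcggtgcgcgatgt

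The Igf1 window held an AP-1 motif, TGANTCA, 37 bases before the start, and 52.8% of its bases were G or C. The other windows were richer in G and C, at 73.2% for Igfbp3, 72.4% for Irs1 and 72.8% for Irs2. Irs1 and Irs2 each held an E-box, CACGTG, 115 and 44 bases before their starts, inside a shared run of 10 bases, gtcacgtgtt. Irs1 also had GC boxes, GGGCGG, at 227 and 216 bases, and Irs2 had 1 at 85 bases. Of 32851 RefSeq windows of the same length, 6.75% held the AP-1 letters, 6.02% the E-box and 32.7% the GC box. TATAAA (12.4% of windows), GTAAACA (3.17%) and TTGCNNAA (9.56%) were also searched and were not found in these 4 windows. No motif search overlapped another in the printed windows, and a match describes letters only.

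Mainstream smoke raised Igf1 and lowered Igfbp3 at both diets, and lowered Irs1 in regular weight mice. Irs1 was also called lower in obese mice, but not without the 5 arrays that stood apart (-0.21, limma adjusted p = 0.11). Under mainstream smoke against air, 6 of 17 probe sets were called in obese mice, where 18.2% of all probe sets were called. Of the 17, 3 were higher and 3 lower, beside 9.91% and 8.24% of all probe sets. In regular weight mice 7 of 17 were called, where 14.2% of all probe sets were called. Of these, 3 were higher and 4 lower, beside 6.11% and 8.07% of all probe sets. At each diet the 3 higher were all probe sets of Igf1. The calls fell in 4 of the 9 genes in obese and 5 in regular weight mice. The median log2 difference of the 17 was -0.10 in obese and -0.11 in regular weight mice, beside -0.02 and -0.03 over all probe sets. The comparisons of the diets and of sidestream smoke gave few calls among the 17. The response of each member in every comparison is drawn in the grid of differences.

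**Figure D1:**
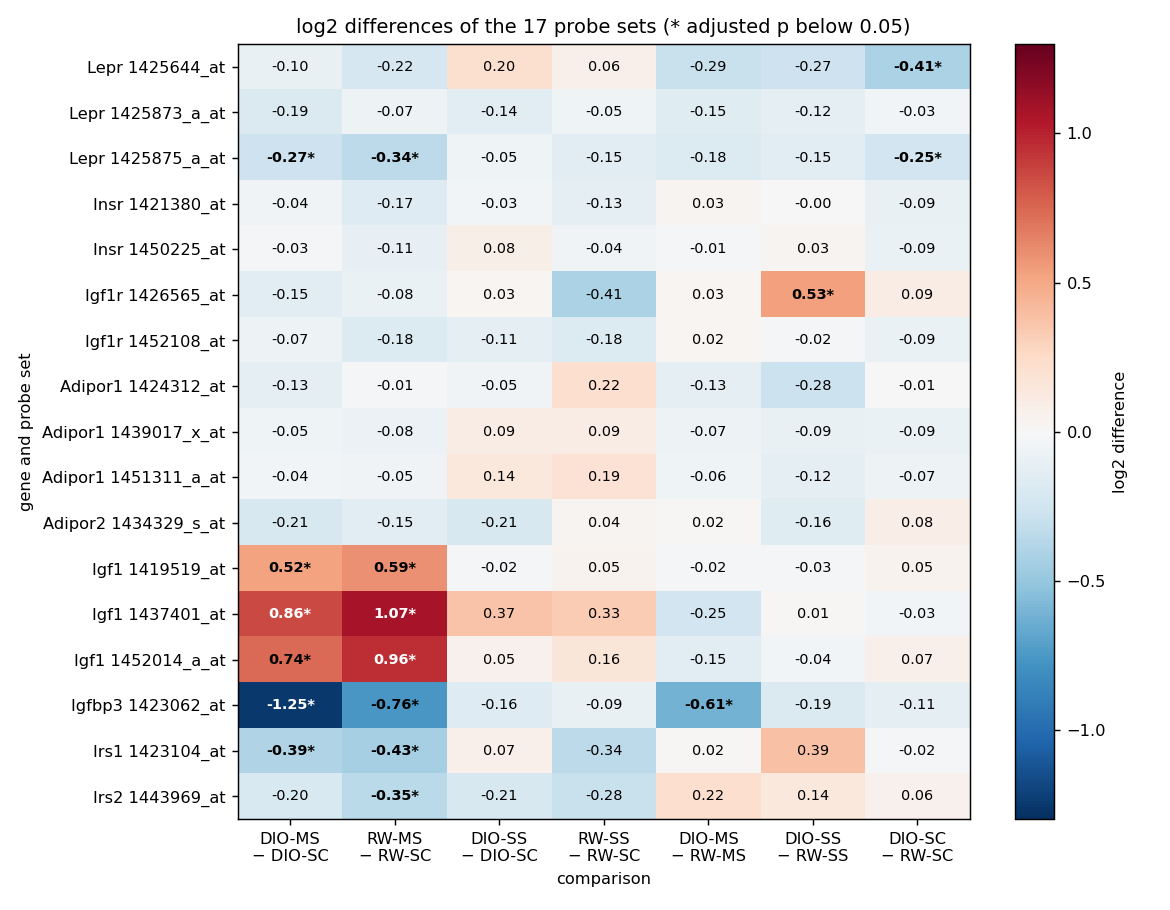
Log2 differences of the 17 probe sets (rows) in 7 comparisons (columns), coloured from lower to higher, with an asterisk and bold type where limma's adjusted p was below 0.05. The 3 Igf1 probe sets are called higher and Igfbp3 lower in both mainstream columns, and no probe set is called in either sidestream column.

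Igf1, the secreted growth factor of the family, was higher under mainstream smoke at both diets and in all 3 of its probe sets. On the leading probe set 1437401_at, the one with the highest mean over all arrays, obese mice had values from 8.89 to 9.95 (median 9.19) in mainstream smoke, against 7.85 to 8.92 (median 8.43) in air. Regular weight mice had 8.84 to 10.58 (median 9.42) in mainstream smoke, against 8.28 to 8.76 (median 8.44) in air. The regular weight groups did not overlap, and 7 of 8 obese mice in smoke lay above every obese mouse in air. The log2 difference was 0.86 ± 0.18 in obese mice (1.81-fold, limma adjusted p = 0.00032) and 1.07 ± 0.18 in regular weight mice (2.1-fold, limma adjusted p = 2.1e-05).

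Without the 5 arrays that stood apart the obese difference on 1437401_at was 0.68 (limma adjusted p = 0.0052). The difference between the diets in this response, obese minus regular weight, was -0.22 ± 0.25, with a 95% interval from -0.72 to 0.29 (limma adjusted p = 0.79). Probe set 1452014_a_at rose by 0.74 ± 0.19 in obese and 0.96 ± 0.19 in regular weight mice (limma adjusted p = 0.0033 and 0.00031). Probe set 1419519_at rose by 0.52 ± 0.15 and 0.59 ± 0.15 (limma adjusted p = 0.0099 and 0.005), and without the 5 arrays its obese difference was 0.30 with a limma adjusted p of 0.13. The 3 probe sets correlated with each other at 0.87 to 0.94 across the 48 arrays.

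Sidestream smoke did not move Igf1 past the threshold. Obese mice in sidestream smoke averaged 8.83 ± 0.17 on 1437401_at, and obese mice in air 8.46 ± 0.37, a difference of 0.37 ± 0.18 with an interval from 0.02 to 0.73 (limma adjusted p = 0.22). Regular weight mice averaged 8.82 ± 0.40 in sidestream smoke and 8.49 ± 0.17 in air (difference 0.33 ± 0.18, limma adjusted p = 0.34). Set directly against each other, mainstream exceeded sidestream smoke by 0.74 ± 0.18 in regular weight mice (limma adjusted p = 0.0041). In obese mice the same difference was 0.48 ± 0.18 (limma adjusted p = 0.060), and it was called on the other 2 probe sets, at 0.69 and 0.55, though on neither without the 5 arrays (limma adjusted p = 0.055 and 0.11). Over all 17 probe sets, mainstream against sidestream smoke gave 4 calls in obese mice (13.3% of all probe sets), 2 higher and 2 lower (7.39% and 5.92%). It gave 6 calls in regular weight mice (8.34%), 3 higher and 3 lower (5.32% and 3.02%). The calls fell in 3 genes at each diet.

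Macrophage markers were called higher in each comparison where Igf1 was. They were also called where Igf1 was not. In air 2 of 6 were lower in obese than in regular weight mice, and 0 without the 5 arrays. In obese mice 1 of 6 was higher in sidestream smoke than in air, with or without the 5 arrays. Of the 6 macrophage markers 5 rose under mainstream smoke at each diet, with a median difference of 1.41 in obese and 1.17 in regular weight mice. Their mean level ran from 11.18 to 11.42 in DIO-MS against 9.61 to 10.29 in DIO-SC, and from 11.08 to 11.73 in RW-MS against 9.97 to 10.23 in RW-SC. Of 6 fibroblast markers 3 rose at each diet, and RW-MS-7 was the highest array of its group for both marker lists and for Igf1. Their part in the Igf1 result was not tested.

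**Figure D2:**
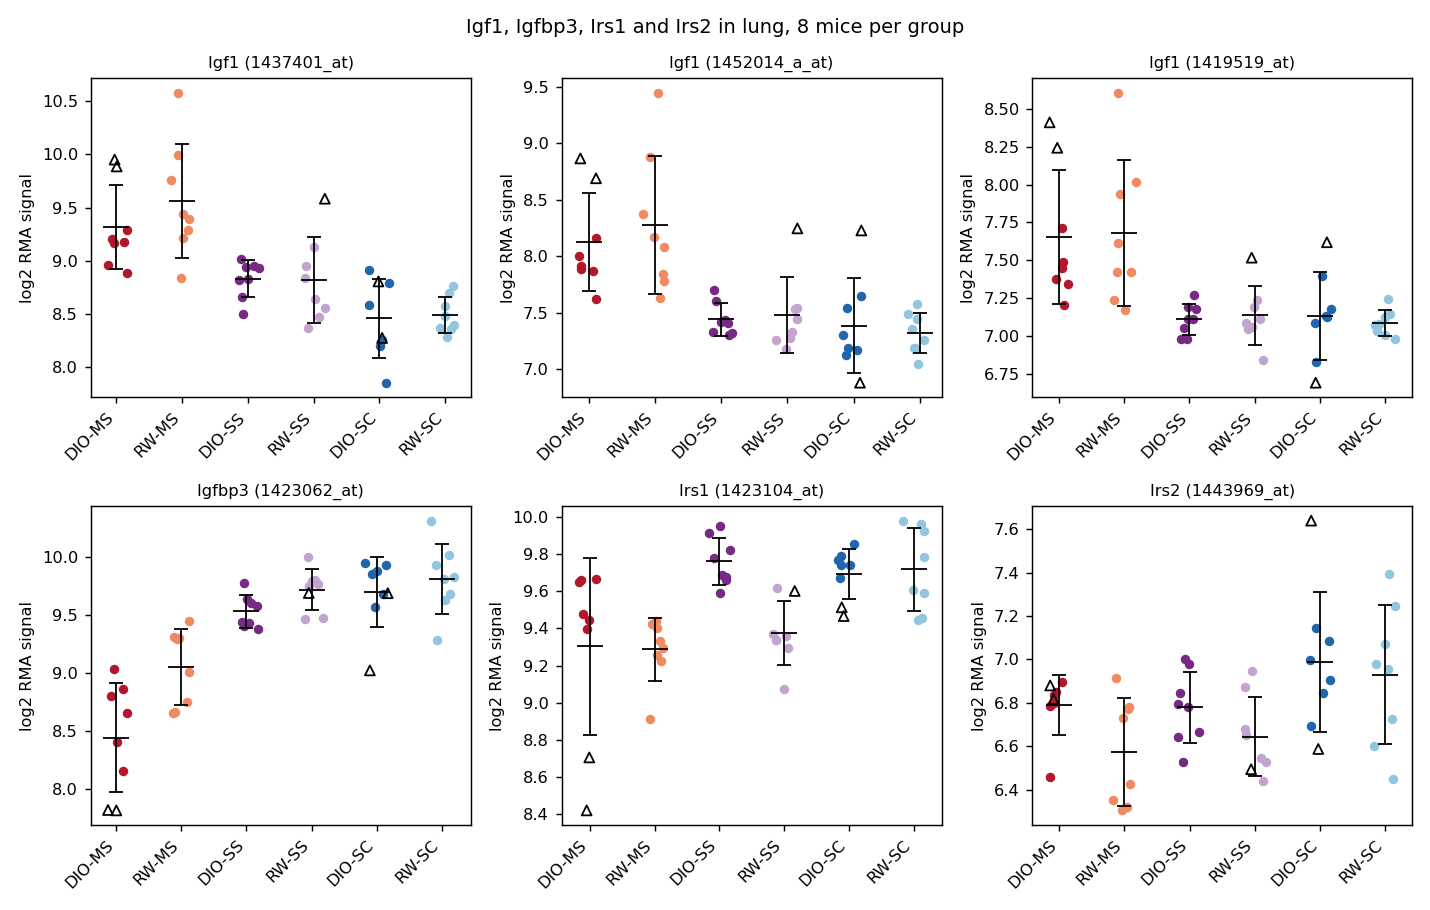
Log2 RMA signal of each mouse for the 3 Igf1 probe sets, Igfbp3, Irs1 and Irs2, by group (8 mice each, obese left of regular weight), with bars for mean and SD and open triangles for the 5 arrays that stood apart. In mainstream smoke Igf1 sits high, with 1437401_at between 8.84 and 10.58 in RW-MS, and Igfbp3 sits low, between 7.82 and 9.03 in DIO-MS.

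Igfbp3, which carries IGF-1 and limits its access to the receptor, moved the other way. Obese mice had 7.82 to 9.03 (median 8.53) in mainstream smoke, against 9.02 to 9.95 (median 9.78) in air. Regular weight mice had 8.66 to 9.45 (median 9.15) in mainstream smoke, against 9.29 to 10.32 (median 9.83) in air. DIO-MS and DIO-SC overlapped by a single pair of arrays, and 4 of 8 RW-MS arrays were below every RW-SC array. Igfbp3 fell by 1.25 ± 0.15 in obese mice (2.39-fold, limma adjusted p = 7.8e-09) and fell by 0.76 ± 0.15 in regular weight mice (1.69-fold, limma adjusted p = 0.00033).

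Every mainstream array lay below every sidestream array of the same diet for Igfbp3. The mean was 8.44 ± 0.47 in DIO-MS against 9.53 ± 0.14 in DIO-SS, and 9.06 ± 0.33 in RW-MS against 9.72 ± 0.18 in RW-SS. The differences, mainstream minus sidestream, were -1.09 ± 0.15 in obese and -0.67 ± 0.15 in regular weight mice (limma adjusted p = 3.2e-07 and 0.0021). Sidestream smoke against air gave -0.16 ± 0.15 in obese mice (limma adjusted p = 0.56) and -0.09 ± 0.15 in regular weight mice (limma adjusted p = 0.81).

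Within mainstream smoke, Igfbp3 was lower in obese than in regular weight mice by a log2 difference of -0.61 ± 0.15 (1.53-fold, limma adjusted p = 0.027). It was the only one of the 17 probe sets called there, and 1.07% of all probe sets were called, 0.482% lower. Without the 5 arrays the difference was -0.40 and not called (limma adjusted p = 0.13). It was also not called without any 1 of DIO-MS-1, DIO-MS-2, DIO-MS-6, RW-MS-1, RW-MS-2 or RW-MS-5, with values of -0.52 to -0.58 and limma adjusted p of 0.051 to 0.097. DIO-MS-1 carried the highest interferon-induced markers, at 11.96, and the part of those genes in this difference was not tested. The difference between the diets in the whole mainstream response was -0.50 ± 0.21, with an interval from -0.92 to -0.07 (unadjusted p = 0.023, limma adjusted p = 0.30).

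Irs1, the substrate that recruits PI3 kinase to the insulin and IGF-1 receptors, was lower in mainstream smoke. Regular weight mice had 8.91 to 9.44 (median 9.31) in mainstream smoke, against 9.44 to 9.98 (median 9.69) in air, and the groups did not overlap. Irs1 fell by 0.43 ± 0.12 there (1.35-fold, limma adjusted p = 0.012). Obese mice had 8.42 to 9.66 (median 9.46) in mainstream smoke, against 9.47 to 9.85 (median 9.74) in air. Irs1 fell by 0.39 ± 0.12 in these mice (limma adjusted p = 0.018), with 4 of 8 arrays below every array in air. The obese call rested on DIO-MS-1 and DIO-MS-6: without DIO-MS-1 the difference was -0.26 (limma adjusted p = 0.078), without DIO-MS-6 -0.30 (limma adjusted p = 0.070), and without all 5 arrays -0.21 (limma adjusted p = 0.11). These 2 arrays had high interferon-induced genes, whose part in the result was not tested. Against sidestream smoke, mainstream smoke gave an Irs1 difference of -0.46 ± 0.12 in obese mice (limma adjusted p = 0.0068), and -0.21 without the 5 arrays (limma adjusted p = 0.11).

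Irs1 also lay apart between the diets in sidestream smoke, short of the threshold. Obese mice had 9.59 to 9.95 (median 9.73) in sidestream smoke, against 9.07 to 9.62 (median 9.35) in regular weight mice, and 7 of 8 obese arrays were above every regular weight array. The difference was 0.39 ± 0.12 (unadjusted p = 0.0025, limma adjusted p = 0.12), and without the 5 arrays it was 0.42 and called (limma adjusted p = 0.002). Against air, sidestream smoke gave -0.34 ± 0.12 in regular weight mice (limma adjusted p = 0.11, and 0.0039 at -0.38 without the 5 arrays) and 0.07 ± 0.12 in obese mice (limma adjusted p = 0.79). The difference between the diets in that response was 0.41 ± 0.17, with an interval from 0.07 to 0.75 (unadjusted p = 0.020, limma adjusted p = 0.37).

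Irs2, the second substrate of the same receptors, was lower in regular weight mice in mainstream smoke. These mice had 6.30 to 6.92 (median 6.58) in mainstream smoke, against 6.45 to 7.39 (median 6.97) in air, and 4 of 8 arrays lay below every array in air. The log2 difference was -0.35 ± 0.12 (1.28-fold, limma adjusted p = 0.036). The call was lost without any 1 of RW-MS-1, RW-MS-3, RW-MS-4, RW-MS-8, RW-SC-1, RW-SC-2, RW-SC-3, RW-SC-4 or RW-SC-8, with values of -0.29 to -0.35 and limma adjusted p of 0.051 to 0.11. In obese mice Irs2 averaged 6.79 ± 0.14 in mainstream smoke and 6.99 ± 0.32 in air (difference -0.20 ± 0.12, limma adjusted p = 0.26).

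Lepr, the receptor for leptin, was lower in obese mice breathing air. Lepr was the only gene among the 9 with a call there, in 2 of 17 probe sets, both lower. In that comparison 6.18% of all probe sets were called, and 4.30% were called lower. On 1425644_at obese mice had 8.34 to 9.12 (median 8.98) and regular weight mice 8.83 to 9.53 (median 9.36) in air. The groups overlapped, with 2 of 8 obese arrays below every regular weight array. The difference was -0.41 ± 0.11 (1.33-fold, limma adjusted p = 0.016), and -0.29 without the 5 arrays (limma adjusted p = 0.017). Probe set 1425875_a_at averaged 8.33 ± 0.19 in DIO-SC and 8.58 ± 0.18 in RW-SC, a difference of -0.25 ± 0.07 (limma adjusted p = 0.037).

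The call on 1425875_a_at was less firm. Without the 5 arrays it was -0.16 with a limma adjusted p of 0.17. It was also lost without any 1 of DIO-SC-3, DIO-SC-5, DIO-SC-7, DIO-SC-8, RW-SC-1, RW-SC-2, RW-SC-3, RW-SC-4 or RW-SC-8, at -0.19 to -0.25 with limma adjusted p of 0.053 to 0.099. Endothelial markers, of which 0 of 6 were called in this comparison, had a mean level of 10.61 to 11.53 in DIO-SC against 11.31 to 11.60 in RW-SC. DIO-SC-7 was the lowest DIO-SC array for these markers and for Lepr 1425644_at. Skeletal muscle markers, 3 of 7 called higher, ran from 5.65 to 12.74 in DIO-SC against 5.32 to 6.11 in RW-SC. Adipocyte markers, 1 of 5 called higher, ran from 5.99 to 10.75 against 6.12 to 7.49, and the 1 called was the dim leptin gene Lep. Without the 5 arrays 3 of 7 and 1 of 5 were again called higher. The highest DIO-SC levels were then 6.75 for skeletal muscle and 7.86 for adipocyte markers. The part of these tissues in the Lepr result was not tested.

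Under smoke the diets differed on Lepr 1425644_at in the same direction but short of the threshold. The difference, obese minus regular weight, was -0.29 ± 0.11 in mainstream smoke (limma adjusted p = 0.22, and -0.10 without the 5 arrays). In sidestream smoke it was -0.27 ± 0.11 (limma adjusted p = 0.33), with 6 of 8 obese arrays below every regular weight array, and -0.29 without the 5 arrays (limma adjusted p = 0.036). Mainstream smoke lowered 1425875_a_at at both diets. It averaged 8.06 ± 0.13 in DIO-MS against 8.33 ± 0.19 in DIO-SC, and 8.24 ± 0.09 in RW-MS against 8.58 ± 0.18 in RW-SC. It fell by 0.27 ± 0.07 in obese and by 0.34 ± 0.07 in regular weight mice (limma adjusted p = 0.0091 and 0.0014), and 7 of 8 RW-MS arrays lay below every RW-SC array. Of 6 endothelial markers 0 were called in obese and 2 were called lower in regular weight mice under mainstream smoke, with median log2 differences of -0.14 and -0.22. The counts without the 5 arrays were 3 lower in obese mice (median -0.21) and 4 lower in regular weight mice, and their part was not tested.

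The other bright Lepr probe set was not called under mainstream smoke against air with all arrays, and no test compared the probe sets. On 1425644_at the differences against air were -0.10 ± 0.11 in obese and -0.22 ± 0.11 in regular weight mice (limma adjusted p = 0.61 and 0.18). Without the 5 arrays the regular weight difference was called, at -0.22 (limma adjusted p = 0.026). Against sidestream smoke in regular weight mice, mainstream smoke then gave calls on 1425644_at (-0.30, limma adjusted p = 0.0047) and 1425875_a_at (-0.22, limma adjusted p = 0.016), where with all arrays neither was called (0.10 and 0.11). The pair correlated at 0.76 across arrays. The third probe set, 1425873_a_at, was dim, with group means of 4.81 to 5.03, was called in no comparison, and correlated with the others at 0.10 and 0.22. Which receptor isoform each probe set reads is not given in the files.

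**Figure D3:**
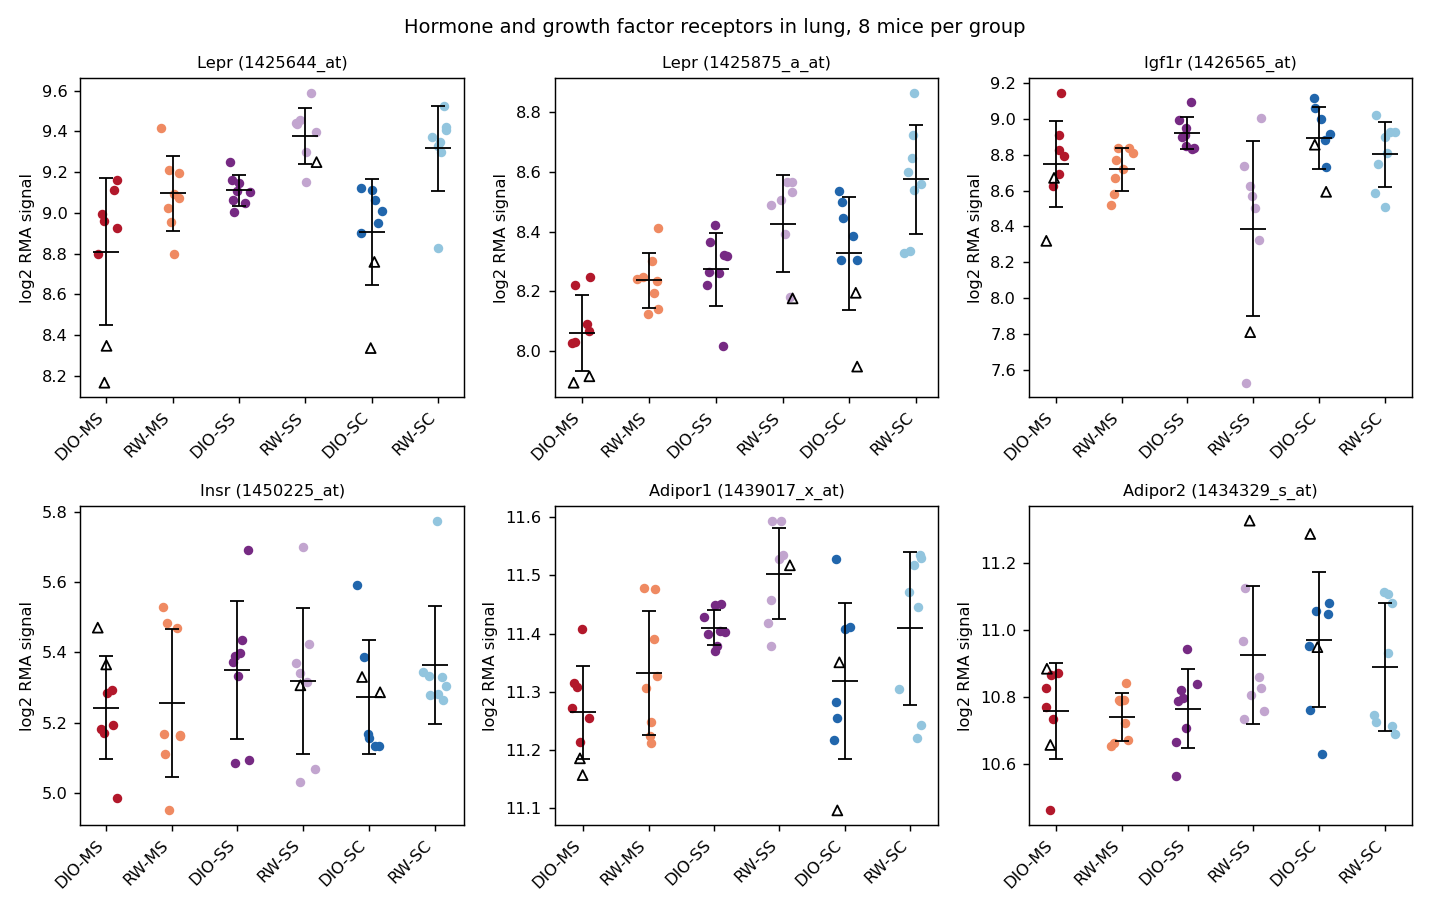
Log2 RMA signal of each mouse for 2 Lepr probe sets and 1 probe set each of Igf1r, Insr, Adipor1 and Adipor2, by group (8 mice each), with bars for mean and SD and open triangles for the 5 arrays that stood apart. Lepr 1425644_at is lower in DIO-SC than in RW-SC, and Igf1r spreads widest in RW-SS, from 7.53 to 9.01.

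Igf1r, the receptor for IGF-1, was called in 1 of the 11 comparisons, higher in obese than in regular weight mice in sidestream smoke. It was the only one of the 17 probe sets called there, and 0.937% of all probe sets were called, 0.641% higher. On 1426565_at obese mice had 8.83 to 9.10 (median 8.91) in sidestream smoke, against 7.53 to 9.01 (median 8.54) in regular weight mice. The regular weight mice spread more widely, 2 of them lay below 8, and 1 of 8 obese arrays exceeded all of them. The difference was 0.53 ± 0.12 (1.45-fold, limma adjusted p = 0.020). It was 0.45 (limma adjusted p = 0.072) without RW-SS-6, 0.41 (limma adjusted p = 0.075) without RW-SS-8 and 0.51 (limma adjusted p = 0.0504) without DIO-SS-7, and 0.45 and called without all 5 arrays (limma adjusted p = 0.028).

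Of 6 fibroblast markers 3 were called higher in obese mice in the same comparison, with mean levels of 11.13 to 11.45 in DIO-SS against 10.76 to 11.26 in RW-SS, where RW-SS-8 was lowest. Their part in the Igf1r difference was not tested. Against air, sidestream smoke gave Igf1r differences of 0.03 ± 0.12 in obese mice (limma adjusted p = 0.93) and -0.41 ± 0.12 in regular weight mice (limma adjusted p = 0.058). The difference between the diets was 0.44 ± 0.17, with an interval from 0.09 to 0.79 (unadjusted p = 0.015, limma adjusted p = 0.33). The other Igf1r probe set, 1452108_at, was dim, with group means of 5.29 to 5.49, and had -0.02 in the obese against regular weight comparison. It correlated with 1426565_at at 0.25.

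Insr, the insulin receptor, was dim on this array and had no call in any comparison. Group means were 4.84 to 5.01 on 1421380_at and 5.24 to 5.36 on 1450225_at. The difference farthest from 0 was -0.17 ± 0.08, on 1421380_at in regular weight mice in mainstream smoke against air (limma adjusted p = 0.14). Values this low leave a change in Insr hard to detect.

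The adiponectin receptors were bright and varied little. Adipor1, the receptor linked to AMP-activated kinase, had group means of 11.26 to 11.50 on 1439017_x_at and 10.68 to 10.97 on 1451311_a_at. The third probe set, 1424312_at, had group means of 8.19 to 8.55. In regular weight mice Adipor1 was lower in mainstream than in sidestream smoke on 1439017_x_at and 1451311_a_at, by log2 differences of -0.17 ± 0.05 and -0.23 ± 0.07 (limma adjusted p = 0.033 and 0.018). No Adipor1 probe set was called against air or between the diets. The call on 1451311_a_at was lost without RW-MS-1 (-0.20, limma adjusted p = 0.054) or RW-MS-4 (-0.20, limma adjusted p = 0.058), and that on 1439017_x_at without 10 of the 16 arrays, at -0.15 to -0.17 with limma adjusted p of 0.052 to 0.078. Adipor2, the receptor linked to PPAR-alpha, had group means of 10.74 to 10.97 and no call. Its difference in obese mice in mainstream smoke against air was -0.21 ± 0.08 (limma adjusted p = 0.060).

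Sidestream smoke against air gave 0 limma calls among the 17 probe sets at either diet, where 5.29% of all probe sets were called in obese and 2.30% in regular weight mice. By unadjusted p under 0.05, 3 probe sets passed in obese and 6 in regular weight mice. The share of all probe sets passing that looser threshold was not counted, so these counts have no background beside them. Tests of whether the response to smoke differed between the diets also gave 0 limma calls, for mainstream smoke (0.650% of all probe sets called) and for sidestream smoke (0.535%). By unadjusted p under 0.05, 1 and 4 of the 17 passed, again with no share of all probe sets counted.

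Calls among the 17 were both lost and gained when fewer arrays entered the fit. With only the arrays of the groups compared, the call between the diets was lost in air for Lepr 1425644_at (limma adjusted p = 0.081) and 1425875_a_at (0.21), in mainstream smoke for Igfbp3 (0.18) and in sidestream smoke for Igf1r 1426565_at (0.082). Under mainstream smoke against air it was lost in obese mice for Irs1 (0.16), Lepr 1425875_a_at (0.056) and Igf1 1419519_at (0.078), and in regular weight mice for Irs2 (0.074). Under mainstream against sidestream smoke it was lost in obese mice for Irs1 (0.056). Gained in this setting between the diets in sidestream smoke were Irs1 (0.39, limma adjusted p = 0.010), Lepr 1425644_at (-0.27, 0.018) and Adipor1 1424312_at (-0.28, 0.029). Under mainstream against sidestream smoke, obese mice gained Adipor1 1439017_x_at (limma adjusted p = 0.020) and 1451311_a_at (0.016), Igf1 1437401_at (0.026) and Lepr 1425875_a_at (0.029). Regular weight mice gained Lepr 1425644_at there (0.027).

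**Figure D4:**
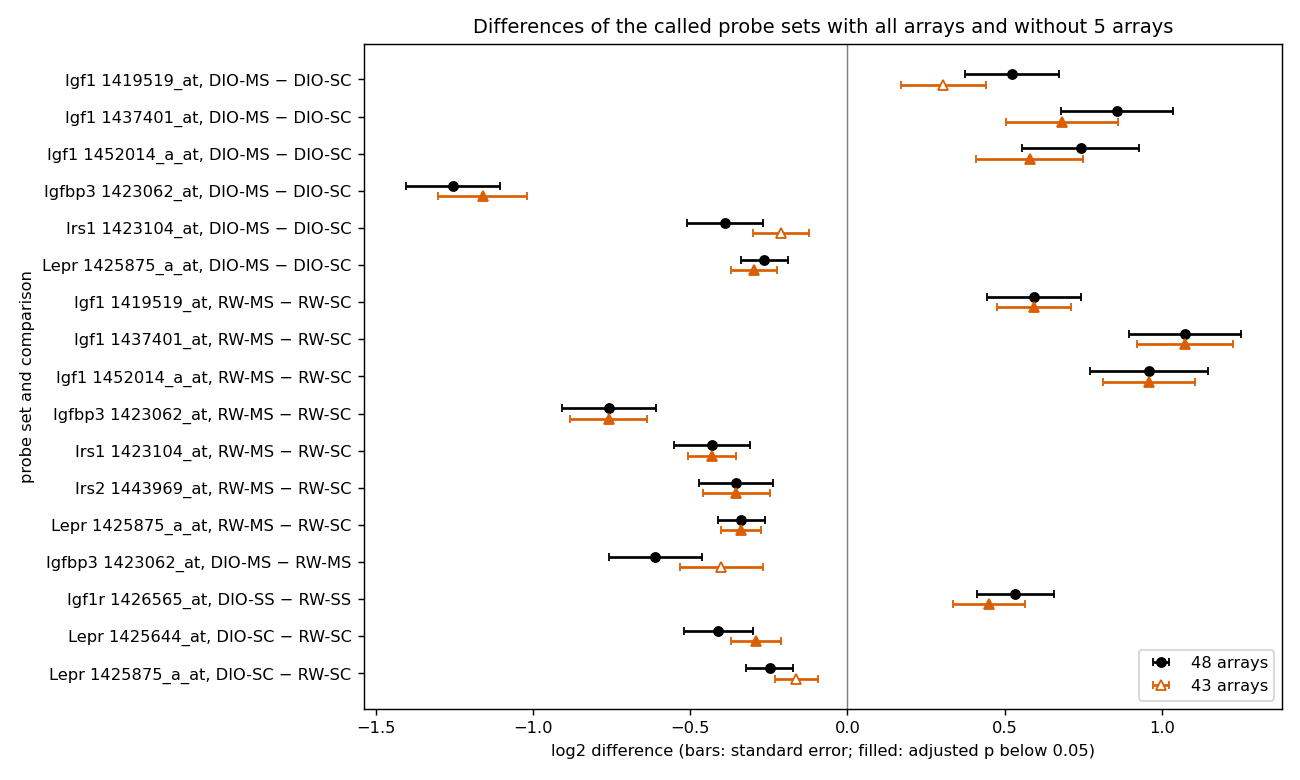
Log2 difference with standard error of each called pair of probe set and comparison (rows, mainstream against sidestream smoke left out), with all 48 arrays (black circles) and with the 43 arrays left without the 5 that stood apart (orange triangles). Filled symbols are called at limma adjusted p below 0.05, and open triangles mark calls lost without the 5, such as Irs1 in obese mice at -0.21.

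Around the 9 genes, 66 of 76 further genes of the pathway were measured, counted on 1 probe set each. Under mainstream smoke against air, 4 rose and 14 fell in obese mice, which is 27.3% of the 66 beside 18.2% of all probe sets. Leaving out the 5 arrays, 3 rose and 8 fell, where 14.9% of all probe sets were called. In regular weight mice 3 rose and 6 fell (13.6%, beside 14.2% of all probe sets). Without the 5 arrays 4 rose and 8 fell there, where 22.8% of all probe sets were called. Under sidestream smoke 2 fell in obese mice (3.03%, beside 5.29%) and limma called 0 in regular weight mice (beside 2.30%). In regular weight mice 2 were called lower without the 5 arrays, beside 4.01% of all probe sets called. Between the diets, limma called 3 genes in air, all higher (4.55%, beside 6.18% of all probe sets), 1 in mainstream smoke (1.52%, beside 1.07%) and 2 in sidestream smoke (3.03%, beside 0.937%). The shares beside the pathway counts, here and below, are over all probe sets, not 1 per gene. With limma on 1 leading probe set for each of 12393 genes, mainstream smoke against air gave 1448 higher and 1210 lower in obese mice. In regular weight mice it gave 819 higher and 1000 lower. Sidestream smoke gave 528 and 321 in obese and 86 and 183 in regular weight mice. Between the diets it gave 284 and 742 in air, 76 and 74 in mainstream and 81 and 40 in sidestream smoke.

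Among 12 hormones and binding proteins, Igfbp6, which prefers IGF-2, had the widest change among those called. Igfbp6 was called in the same comparisons as Igfbp3, except between the diets in mainstream smoke, where it was not called. It averaged 10.85 ± 0.35 in DIO-MS against 11.92 ± 0.43 in DIO-SC, and 11.14 ± 0.17 in RW-MS against 12.08 ± 0.12 in RW-SC. Igfbp6 fell by 1.08 ± 0.12 in obese and by 0.94 ± 0.12 in regular weight mice (limma adjusted p = 2.4e-09 and 1.4e-07). Igf2, the second IGF ligand, fell by 0.43 ± 0.08 and by 0.31 ± 0.08 (limma adjusted p = 6.6e-05 and 0.0052). Igfbp5 was higher in obese mice in air, at 11.19 ± 0.21 in DIO-SC and 10.61 ± 0.13 in RW-SC, by 0.57 ± 0.13 (limma adjusted p = 0.0042), and fell by 0.69 ± 0.13 under mainstream smoke in obese mice (limma adjusted p = 7.9e-05, and by 0.44 without the 5 arrays). Lep, leptin itself, was dim, at 4.38 ± 0.37 in DIO-SC and 3.91 ± 0.14 in RW-SC. It was called higher in obese mice in air by 0.47 ± 0.11 (limma adjusted p = 0.0058, and 0.34 without the 5 arrays). The same call is the 1 counted among the adipocyte markers there.

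Among 22 receptors and receptor-bound proteins, Socs3, which turns off leptin and cytokine receptors, rose most among those called. It read 9.61 to 11.55 in DIO-MS against 8.83 to 9.79 in DIO-SC, and 9.76 to 10.40 in RW-MS against 8.46 to 9.24 in RW-SC. Socs3 rose by 1.01 ± 0.17 in obese mice (limma adjusted p = 2.1e-05, and by 0.54 without the 5 arrays) and by 0.99 ± 0.17 in regular weight mice (limma adjusted p = 6.4e-05). Jak2, the kinase bound to the leptin receptor, rose by 0.40 ± 0.06 and 0.20 ± 0.06 (limma adjusted p = 3.6e-06 and 0.026), and by 0.26 in obese mice without the 5 arrays. Cdh13, T-cadherin, which binds adiponectin, fell by 0.54 ± 0.10 and by 0.37 ± 0.10 (limma adjusted p = 7.2e-05 and 0.010). Grb14, an adaptor that inhibits the insulin receptor, fell by 0.47 ± 0.08 in obese mice under mainstream smoke (limma adjusted p = 2.5e-05), and was lower in obese than in regular weight mice there by -0.35 ± 0.08 (limma adjusted p = 0.020, and 0.051 at -0.21 without the 5 arrays).

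Among 21 kinases and their partners below the receptors, 4 fell in obese mice under mainstream smoke and 1 in regular weight mice, where 8.24% and 8.07% of all probe sets were called lower. The counts were 1 in obese and 2 in regular weight mice without the 5 arrays, beside 1578 and 3064 of 22626 probe sets called lower. Foxo3, the transcription factor that AKT keeps out of the nucleus, fell by 0.44 ± 0.09 in obese mice under mainstream smoke (limma adjusted p = 0.00047) and by 0.34 ± 0.09 under sidestream smoke (limma adjusted p = 0.024). Gsk3b, a kinase that AKT inhibits, was higher in obese mice under sidestream smoke by 0.63 ± 0.16 (limma adjusted p = 0.044, and 0.067 at 0.53 without the 5 arrays). Gsk3b averaged 8.70 ± 0.17 in DIO-SS against 8.07 ± 0.54 in RW-SS, and as with Igf1r the RW-SS mice spread most.

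Among 11 genes measured from a list of FoxO targets taken as lowered by insulin, Klf15 and Pdk4 had the widest changes among those called. Klf15, a regulator of glucose and amino acid metabolism that glucocorticoids also induce, averaged 8.81 ± 0.41 in DIO-MS, 9.26 ± 0.15 in DIO-SS and 10.27 ± 0.44 in DIO-SC. In regular weight mice Klf15 averaged 9.13 ± 0.24 in RW-MS, 9.93 ± 0.26 in RW-SS and 9.88 ± 0.16 in RW-SC. In obese mice it fell by 1.46 ± 0.14 under mainstream and by 1.02 ± 0.14 under sidestream smoke (limma adjusted p = 6.1e-11 and 6.2e-06), and in regular weight mice by 0.75 ± 0.14 under mainstream smoke (limma adjusted p = 0.00027). The sidestream response of Klf15 differed between the diets by -1.07 ± 0.20 (limma adjusted p = 0.0029, and -1.12 without the 5 arrays), the only such call among the pathway genes measured with all 48 arrays. Pdk4, which spares glucose in muscle and fat, was 1.68 ± 0.41 higher in obese mice in air (limma adjusted p = 0.0077), with DIO-SC from 7.23 to 11.19 against 6.03 to 7.16 in RW-SC, and 0.97 higher without the 5 arrays. In obese mice Pdk4 was also called lower in mainstream smoke than in air, against the same DIO-SC group. That difference was -1.62 ± 0.41 (limma adjusted p = 0.0034), and -0.83 without the 5 arrays (limma adjusted p = 0.027). Skeletal muscle markers were highest in DIO-SC-3 and fat markers in DIO-SC-7. Without the 5 arrays, 3 of 7 skeletal muscle markers (median log2 difference 0.78) and 1 of 5 adipocyte markers were still called higher in obese mice in air. The part of these tissues in the Pdk4 differences was not tested.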

How the data were processed

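RNA was measured in lung with 1 Affymetrix array per mouse. Per the submitters' processing notes, the authors deposited log2 values from RMA, which corrects background, normalises arrays and summarises probes. The RMA version, and whether 1 run normalised all arrays, are not given in the sources used. Values ran from 2.50 to 15.3 and array medians from 7.82 to 7.94. No raw scans were used, so background and probe summary could not be changed, and the number of arrays limits the precision.

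Of 22690 probe sets, 64 hybridization controls were left out. Group means over all 48 arrays were fitted with limma 3.58.1 (lmFit, eBayes) in R 4.3.3 and adjusted by Benjamini-Hochberg within each of 11 contrasts; tests were two-sided. Tables and figures used Python 3.11.15, pandas 2.3.3 and matplotlib 3.10.9. All probe sets of the 9 genes are described; further pathway genes come from lists, with at most 6 called members of a list named by the largest absolute difference. The members and lists were chosen with earlier results of these data known. On simulated data for obese against regular weight mice in mainstream smoke, 50 of 22626 probe sets were changed at each size. Of changes of 0.25, 0.5, 1 and 2 log2 units, 48%, 94%, 98% and 100% were recovered, with 13 false calls. The simulated noise was normal and independent, with 1 SD per probe set shared by all groups and no arrays that stood apart. Recovery in the real arrays can therefore differ. The mouse numbers in the titles did not pair animals: deviations of same-numbered arrays correlated at 0.010 on average (-0.36 to 0.49, 120 pairs), so the fit has no block. Alternatives were centring on array medians, a filter on dim probe sets, a trended robust variance, 1 probe set per gene, only the groups compared, the number as a block, the 43 arrays without the 5 that stood apart, and each array left out in turn, the last chosen after seeing the data.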

Additional observations from a re-analysis of the deposited data

Results flagged for a closer look

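Single arrays that lay far from the other 7 of their group were found in 8 of 102 groups of 8 arrays, where chance gives about 1 in 20 (5.1). For Igf1 1452014_a_at, RW-SS-6 read 8.25 and the others 7.18 to 7.54. For Igfbp3, DIO-SC-7 read 9.02 and the others 9.57 to 9.95. For Lepr 1425644_at, DIO-SC-7 read 8.34 and the others 8.76 to 9.12, while RW-SC-6 read 8.83 and the others 9.30 to 9.53. RW-SS-6 and DIO-SC-7 are among the 5 arrays that stood apart.

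For Irs1, RW-MS-8 read 8.91 and the others 9.23 to 9.44. For Irs2, DIO-MS-3 read 6.46 and the others 6.78 to 6.90. For Insr 1421380_at, DIO-MS-7 read 5.15 and the others 4.73 to 4.93, and for Insr 1450225_at, RW-SC-6 read 5.77 and the others 5.26 to 5.34.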

How the results depend on the processing

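Of 27 calls among the 17 probe sets, 16 were kept under every setting run for them other than leaving out single arrays (9 of 15 under 7 settings, and 7 of 12 under 6, since 1 probe set per gene leaves out the others), 19 without any 1 array and 13 under both, and no called value changed sign. In the following counts of called probe sets, the value in brackets is from all 48 arrays. Centring arrays on their medians gave 7 for mainstream against sidestream smoke in obese mice (4). Over all probe sets it gave 1577 higher (1673) and 1716 lower (1340) there. Leaving out dim probe sets gave 8 in that comparison, beside 1701 higher and 1475 lower of 17048. It gave 1 for sidestream smoke against air in regular weight mice (0), beside 221 higher (163) and 398 lower (358). With 1 probe set per gene, the counts were 3 and 4 for mainstream smoke against air in obese (6) and regular weight mice (7), 3 for mainstream against sidestream smoke in regular weight mice (6) and 1 for obese mice in air (2), since fewer probe sets were counted. With only the groups compared, the counts were 3 for mainstream smoke against air and 7 for mainstream against sidestream smoke in obese mice. Over all probe sets these comparisons gave 1164 higher (2243) and 594 lower (1865), and 1852 higher (1673) and 1705 lower (1340). For obese against regular weight mice the counts were 0, 0 and 3 in air (2), mainstream (1) and sidestream smoke (1). Over all probe sets that setting gave 102 higher (426) and 256 lower (973) in air. It gave 51 (134) and 25 (109) in mainstream smoke, and 349 (145) and 225 (67) in sidestream smoke. Without the 5 arrays that stood apart, the counts were 4 and 8 for mainstream smoke against air in obese (6) and regular weight mice (7). Of all probe sets, 14.9% (18.2%) and 22.8% (14.2%) were then called. For mainstream against sidestream smoke the counts were 1 in obese (4) and 8 in regular weight mice (6), beside 9.10% (13.3%) and 14.5% (8.34%) of all probe sets. Between the diets in air, mainstream and sidestream smoke the counts were 1, 0 and 3, beside 6.98%, 1.01% and 2.07%. Sidestream smoke against air in regular weight mice gave 1, beside 4.01%. For shifts not tied to fewer probe sets or arrays, the cause was not tested.

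Leaving out 1 array at a time gave 4 to 7 calls for mainstream against sidestream smoke at each diet, 5 to 7 and 6 to 7 for mainstream smoke against air in obese and regular weight mice, 1 to 2 for the diets in air, 0 to 1 for the diets in each smoke, 0 to 1 for sidestream smoke against air in regular weight mice, and 0 to 0 for it in obese mice and for both differences between responses. With the mouse number as a replicate block, Igf1r 1426565_at was called for sidestream smoke against air in regular weight mice (-0.41, limma adjusted p = 0.045, a count of 1), and Lepr 1425875_a_at for mainstream against sidestream smoke in obese mice (-0.21, limma adjusted p = 0.034), and no other call among the 17 changed. Over all probe sets, centring moved the split of higher and lower calls from 163 and 358 to 276 and 268 for sidestream smoke against air in regular weight mice, and from 134 and 109 to 131 and 175 for obese against regular weight mice in mainstream smoke. Low signal limits what Insr, Lepr 1425873_a_at and Igf1r 1452108_at can show.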

Other observations

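For each gene, the probe sets with 1 other symbol whose values followed its leading probe set most closely were ranked by Pearson correlation across the 48 arrays, which share the group differences and the arrays that stood apart, so these values are a description. Igf1 ran closest to Col3a1 (0.861, and 0.892 over the 43 arrays without those 5), which encodes a fibrillar collagen, then to the lysosomal protease gene Ctsb (0.827 and 0.812) and the matrix protease gene Mmp2 (0.825 and 0.856). Igfbp3 ran closest to Igfbp6 (0.889 and 0.847), a second IGF-binding protein gene, then to Mustn1 (0.869 and 0.796) and Pon1 (0.859 and 0.782).

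Irs1 ran closest to Id4 (0.866 and 0.804) and Irs2 to Brd3 (0.804 and 0.811), which encodes a reader of acetylated histones. Lepr ran closest to Tm7sf3, at 0.904 over all arrays and 0.791 over the 43. Igf1r ran closest to Purb (0.881 and 0.886), Pura (0.879 and 0.895) and Zbtb20 (0.878 and 0.920), all of them genes for DNA-binding proteins. Adipor1 ran closest to Marchf2 (0.839 and 0.871) and Adipor2 to Slc25a51 (0.776 and 0.644). The closest value for Insr was lower, 0.678 with Omg.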
